A study of Mus musculus with 6 samples.

Results

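The MCM (minichromosome maintenance) genes were examined in RNA of mouse liver tumours in which a MYC transgene was either switched off for 4 days or left on. The family was taken as the rows of the deposited count table whose gene symbol is Mcm2, Mcm3, Mcm4, Mcm5, Mcm6, Mcm7, Mcm8, Mcm9, Mcm10 or Mcmbp, which gave 10 of 52459 rows, and all 10 were among the 14130 genes that had enough reads to be tested. All 6 libraries came from flash frozen liver tumours of the MYC-LAP-tTA genotype. In this model a tetracycline-controlled transactivator, tTA, is expressed in the liver from the LAP promoter and drives MYC. The MYC-Off Day 4 group held 3 tumour samples taken 4 days into MYC inactivation, and the MYC-On group held 3 samples with MYC active, so the controls carried the same transgenes. The sources used here give neither the agent that inactivated MYC nor the age of the mice, and they do not tie the tumours of a group to different mice. The p-values therefore rest on the spread among 3 tumours a group, which may be technical.

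MCM2 to MCM7 are related ATPases that form a ring around DNA. During G1 the rings are loaded in pairs onto replication origins by the origin recognition complex with CDC6 and CDT1, a step called licensing, and in S phase each ring becomes the motor of the replicative helicase when CDC45 and the GINS proteins join it. MCM8 and MCM9 are a separate pair of related ATPases that act in homologous recombination, whereas MCM10 and MCMBP (MCM-binding protein) are not ring ATPases: MCM10 helps to activate the helicase, and MCMBP binds free MCM subunits and protects newly made ones. Adult hepatocytes are largely quiescent, and MCM transcripts in liver are known as a mark of cells in the division cycle.

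Because most of the family changed together, the sequence around their start sites is shown for the members on which the results turn. RefSeq windows on GRCm38.p6, from 250 bases before to 50 bases after an annotated start, were found for 9 of the 10 genes, in 10 windows, since Mcm7 has 2. Each is written 5′ to 3′ on the strand of its gene, and capitals mark a match on either strand to an E2F-type word (TTTGGCGC, TTTCGCGC, TTTCCCGC or TTTGCCGC) or to the E-box CACGTG, the letters bound by E2F factors and by MYC-MAX. Mcm6 showed the largest fall and Mcm5 the next, and Mcm8 is the member outside the MCM2 to MCM7 ring that fell as far. Mcm2 fell by a like amount with none of the words in its window, Mcm9 did not pass the test and Mcm10 differed between libraries. The windows lie at chr1:128359656-128359955 (Mcm6, minus strand), chr8:75109259-75109558 (Mcm5, plus strand), chr2:132815891-132816190 (Mcm8, plus strand), chr6:88898731-88899030 (Mcm2, minus strand), chr10:53629908-53630207 (Mcm9, minus strand) and chr2:5012742-5013041 (Mcm10, minus strand).
Mcm6: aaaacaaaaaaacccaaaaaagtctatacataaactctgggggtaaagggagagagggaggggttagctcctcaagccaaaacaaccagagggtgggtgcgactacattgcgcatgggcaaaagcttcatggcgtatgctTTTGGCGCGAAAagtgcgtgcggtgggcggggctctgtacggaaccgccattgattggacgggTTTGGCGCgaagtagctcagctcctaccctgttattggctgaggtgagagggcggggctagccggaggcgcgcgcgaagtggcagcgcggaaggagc
Mcm5: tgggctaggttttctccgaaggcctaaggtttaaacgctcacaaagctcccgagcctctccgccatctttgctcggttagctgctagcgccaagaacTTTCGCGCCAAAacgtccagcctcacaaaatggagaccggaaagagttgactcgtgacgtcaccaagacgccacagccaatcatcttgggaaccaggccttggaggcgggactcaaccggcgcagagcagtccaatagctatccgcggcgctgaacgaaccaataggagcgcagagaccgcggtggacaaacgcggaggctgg
Mcm8: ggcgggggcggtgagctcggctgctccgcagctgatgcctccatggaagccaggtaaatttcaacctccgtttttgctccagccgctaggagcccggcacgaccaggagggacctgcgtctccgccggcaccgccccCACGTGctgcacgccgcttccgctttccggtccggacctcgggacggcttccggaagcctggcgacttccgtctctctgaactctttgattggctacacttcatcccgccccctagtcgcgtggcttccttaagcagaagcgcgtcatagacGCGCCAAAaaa
Mcm2: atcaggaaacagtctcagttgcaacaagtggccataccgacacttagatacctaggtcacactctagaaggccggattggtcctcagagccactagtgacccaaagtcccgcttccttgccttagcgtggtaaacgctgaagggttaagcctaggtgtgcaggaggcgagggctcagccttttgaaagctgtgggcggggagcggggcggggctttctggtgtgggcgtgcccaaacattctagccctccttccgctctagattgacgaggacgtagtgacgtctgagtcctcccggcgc
Mcm9: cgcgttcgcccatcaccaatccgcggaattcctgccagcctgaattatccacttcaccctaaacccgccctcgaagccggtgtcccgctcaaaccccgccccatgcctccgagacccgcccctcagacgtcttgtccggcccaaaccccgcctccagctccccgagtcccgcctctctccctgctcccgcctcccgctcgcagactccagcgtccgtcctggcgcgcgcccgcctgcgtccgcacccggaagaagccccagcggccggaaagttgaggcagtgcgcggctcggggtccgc
Mcm10: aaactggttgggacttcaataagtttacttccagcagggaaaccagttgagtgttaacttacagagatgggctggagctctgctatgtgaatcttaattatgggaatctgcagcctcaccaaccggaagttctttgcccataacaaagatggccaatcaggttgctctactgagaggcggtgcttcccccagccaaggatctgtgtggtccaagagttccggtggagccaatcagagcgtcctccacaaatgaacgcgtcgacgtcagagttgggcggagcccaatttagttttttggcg

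An E2F-type word was present in the windows of Mcm3, Mcm5, Mcm6, Mcm7 (in 1 of its 2 windows), Mcm8 and Mcmbp, that is in 6 of the 10 member windows, and in 744 of all 32851 windows of this length (2.26%). In Mcm5 and Mcm6 the words TTTGGCGC and TTTCGCGC overlap as parts of 1 longer run on opposite strands, and Mcm6 has a further TTTGGCGC. The E-box CACGTG was found in the Mcm8 window alone among the members, against 7.15% of all windows, and in Mcm2, Mcm9 and Mcm10 none of these words was found. Mcm3, Mcm5, Mcm6, Mcm7 and Mcm8, with log2 fold changes from -3.50 to -2.69, have an E2F-type word. Mcm9 and Mcm10, which did not pass, have none of the words in their windows. Against this, Mcm2 (-3.20) has none and Mcmbp (-1.21) has 1, and no window was found for Mcm4. Whether the words bear on the changes was not tested. The box CCAAT, bound by NF-Y, was in 9 of the 10 member windows, all but that of Mcmbp, and in 37.4% of all windows; it is not capitalised. A match is a string of letters and not a measured binding site, and a missing match says only that the letters are not in this window. The Mcm10 window ends in TTTGGCG, which is TTTGGCGC without its last base, so a word that crosses this end would be missed.

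Reads counted in genes numbered 16292718 in the smallest library and 19265623 in the largest. Values are CPM, the reads of a gene scaled to a common library size, after TMM scaling, which corrects for differences in RNA composition, and log2 fold changes are MYC-Off Day 4 minus MYC-On with standard errors (SE). Adjusted p-values come from the quasi-likelihood test of edgeR, with the Benjamini-Hochberg method applied over all tested genes, and genes under 0.05 are called. Myc itself stood at 74.8, 10.2 and 18.7 CPM in the MYC-Off Day 4 libraries, against 779, 1018 and 854 CPM in the MYC-On libraries, with replicates 1, 2 and 3 in this order here and below (log2 fold change -4.67, SE 0.80, adjusted p = 0.0035). This row can hold reads of the transgene as well as of the endogenous gene. Of all tested genes 22.8% were lower and 29.9% higher in MYC-Off Day 4, and the median log2 fold change was 0.18. With library size only as the scaling, 32.3% of called genes were higher in place of 56.7%, and log2 fold changes shifted by -0.73 at the median.

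Of the 10 MCM genes, 8 were lower and 0 were higher in MYC-Off Day 4, where 22.8% of all tested genes were lower. The 8 were the 6 ring subunits, Mcm8 and Mcmbp, while Mcm9 and Mcm10 did not pass. For 7 of them the fall was larger than 4-fold, while 7.36% of all tested genes were called lower by at least 4-fold. In the same 8 genes every MYC-Off Day 4 library lay under every MYC-On library, which held for 29.8% of tested genes. In tissue RNA, fewer cells that express these genes and less RNA per cell cannot be told apart.

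**Figure D1:**
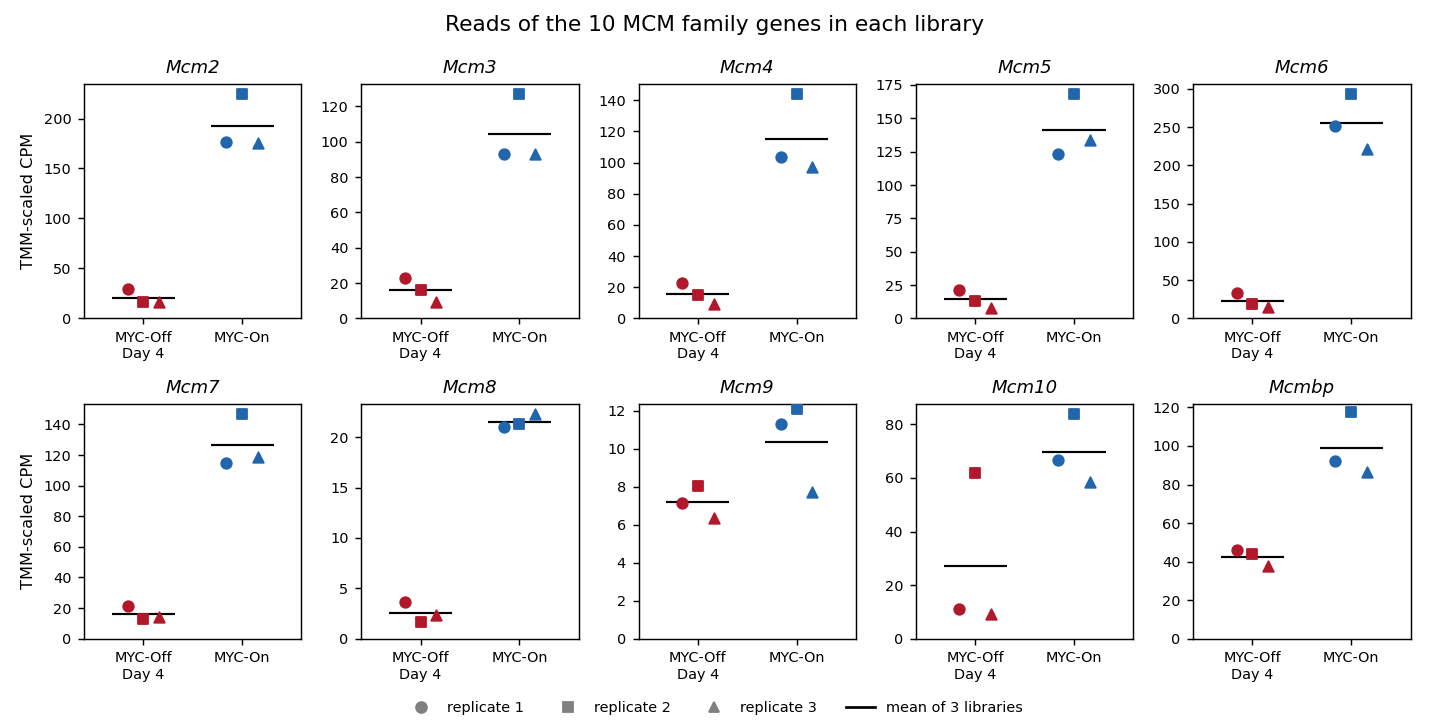
TMM-scaled CPM (vertical axes, each starting at 0) of the 10 MCM genes in the 3 MYC-Off Day 4 libraries (red) and the 3 MYC-On libraries (blue), with symbols for replicates and a bar for the mean. The groups are apart for every gene except Mcm9 and Mcm10, and the Mcm10 value of MYC-Off Day 4 replicate 2 (61.7 CPM) lies among the MYC-On values.

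All 6 ring subunit genes fell. Mcm6 (chromosome 1, 128331590 to 128359664, minus strand, mm10), which had the most reads of the family in MYC-On, stood at 33.7, 19.3 and 14.5 CPM in the MYC-Off Day 4 libraries, against 251, 293 and 222 CPM in the MYC-On libraries. Its log2 fold change was -3.50 (SE 0.38, adjusted p = 0.000967, edgeR), or 11.3-fold lower with a 95% interval from 6.14-fold to 20.9-fold. Mcm6 ranked 233rd from the lowest log2 fold change among the 14130 tested genes.

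Mcm2 (chromosome 6, 88883474 to 88898780, minus strand), a subunit that also binds histones, stood at 29.6, 16.0 and 16.9 CPM in the MYC-Off Day 4 libraries, against 177, 224 and 175 CPM in the MYC-On libraries. It changed by -3.20 on the log2 scale (SE 0.32, adjusted p = 0.000876, edgeR). Mcm5 (chromosome 8, 75109569 to 75128439, plus strand), which forms with MCM2 the gate through which DNA enters the ring, stood at 21.6, 13.3 and 8.22 CPM in the MYC-Off Day 4 libraries, against 123, 168 and 134 CPM in the MYC-On libraries. Its log2 fold change was -3.29 (SE 0.39, adjusted p = 0.00111, edgeR). The gate pair thus fell by 9.21-fold and 9.81-fold, a difference smaller than either standard error.

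Mcm3, Mcm4 and Mcm7 showed the smallest changes of the ring. Mcm3 (chromosome 1, 20802968 to 20820312, minus strand) stood at 22.9, 16.1 and 9.45 CPM in the MYC-Off Day 4 libraries, against 92.9, 127 and 92.9 CPM in the MYC-On libraries (log2 fold change -2.69, SE 0.36, adjusted p = 0.00158, edgeR). Mcm4 (chromosome 16, 15623897 to 15637400, minus strand), whose protein forms with MCM6 and MCM7 a core with helicase activity of its own, stood at 22.8, 15.2 and 9.29 CPM in the MYC-Off Day 4 libraries, against 104, 144 and 97.0 CPM in the MYC-On libraries (-2.87, SE 0.37). Mcm7 (chromosome 5, 138164583 to 138172422, minus strand) stood at 21.4, 12.6 and 14.1 CPM in the MYC-Off Day 4 libraries, against 115, 147 and 119 CPM in the MYC-On libraries (-2.98, SE 0.28, adjusted p = 0.000839). Of the Mcm7 exon bases 7.25% overlap Ap4m1 and 1.45% overlap Cops6, both on the other strand, and no source used here gives the strand setting of the counts. The hairpins of the miR-106b-25 cluster lie inside Mcm7 on its own strand. The intervals of all 6 log2 fold changes overlapped, the widest separation being between Mcm6 (-4.38 to -2.62) and Mcm3 (-3.53 to -1.84).

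The 6 ring genes were highest in replicate 1 among the MYC-Off Day 4 libraries, with a median of -2.62 relative to the MYC-On mean on the log2 scale, and the medians of replicates 2 and 3 were -3.35 and -3.54. That replicate was also the MYC-Off Day 4 library with the most Myc reads and with the highest summed level of macrophage, lymphocyte, endothelial, stellate cell and biliary markers. Proliferation markers also summed highest there (200 CPM, against 87.2 and 92.0 CPM in replicates 2 and 3). Hepatocyte markers summed lowest there (80387 CPM, against 147678 and 248451 CPM). The part of these in the MCM values was not tested. Mcm3, Mcm4, Mcm5 and Mcm6 were lowest in replicate 3, whereas Mcm2 and Mcm7 were lowest in replicate 2.

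**Figure D2:**
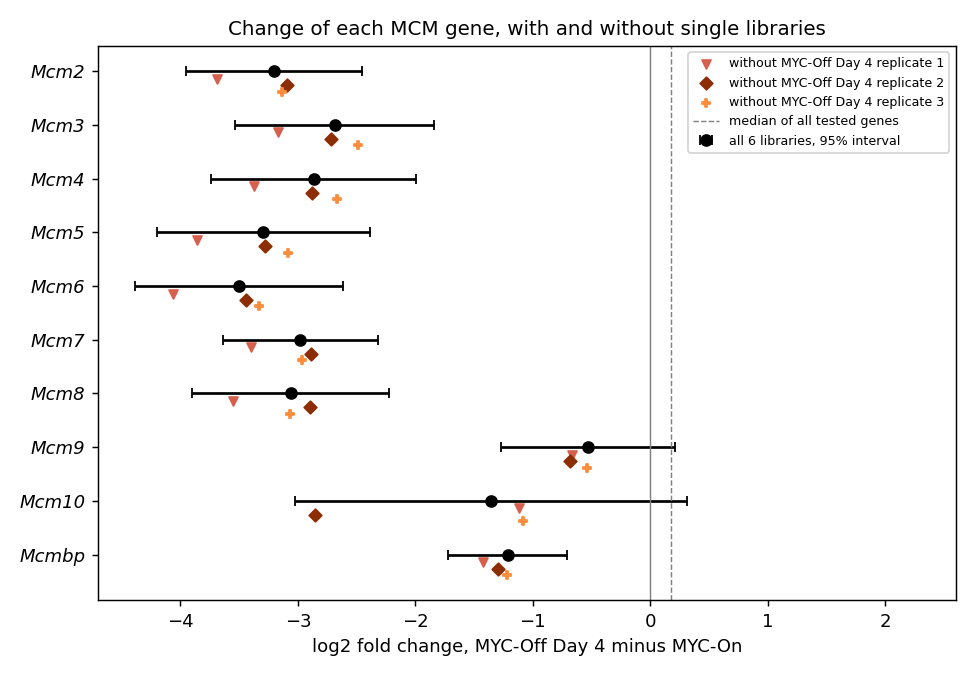
Log2 fold change (horizontal axis, MYC-Off Day 4 minus MYC-On) of each MCM gene, with the 95% interval of the fit on all 6 libraries (black) and the value after leaving out each MYC-Off Day 4 library in turn (coloured). The ring genes and Mcm8 stay between -4.06 and -2.49, while Mcm10 moves to -2.85 without replicate 2.

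Levels of different genes were compared per kilobase of exon. In MYC-On, Mcm6 was the most abundant subunit transcript at 54.7 ± 7.67 CPM per kb (SD, n = 3), with every library above every library of the next, Mcm5 (35.5 ± 5.87 CPM per kb). Mcm4, Mcm7, Mcm3 and Mcm2 followed at 32.0, 28.6, 27.8 and 27.6 CPM per kb, and neighbours from Mcm5 downwards differed by less than their SD between libraries. Within each MYC-On library, though, Mcm5 stood above Mcm4 and Mcm4 above Mcm7, while the order of Mcm7, Mcm3 and Mcm2 varied. In MYC-Off Day 4 the 6 subunits lay between 3.00 (Mcm2) and 4.83 CPM per kb (Mcm6), and neighbours in that order also differed by less than their SD. The order depends on the gene model. With the longest transcript in place of all exon bases as the length, Mcm2 (5.96 CPM per kb) and Mcm7 (5.41) stood above Mcm6 (5.17) in MYC-Off Day 4. In MYC-On Mcm6 (58.6 CPM per kb) was then followed by Mcm2 (55.0), Mcm7 (42.8) and Mcm5 (41.9).

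As a share of the summed per-kilobase level of the 6 subunits, Mcm6 held 20.1% ± 0.90 in MYC-Off Day 4 and 26.6% ± 1.55 in MYC-On (SD, n = 3 each), and the groups did not overlap. Mcm3 held 15.9% to 20.3% in the MYC-Off Day 4 libraries and 13.1% to 13.9% in the MYC-On libraries, also without overlap. Mcm5 held 14.9% ± 1.66 in MYC-Off Day 4 and 17.2% ± 0.933 in MYC-On, its highest MYC-Off Day 4 value (15.9%) lying just under its lowest MYC-On value (16.3%). For Mcm2, Mcm4 and Mcm7 the shares overlapped between the groups. The spread between libraries was wider in MYC-Off Day 4 for every subunit except Mcm6. With 3 libraries a group an exact two-sided permutation test cannot go below p = 0.1, so these shares are given as a description.

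**Figure D3:**
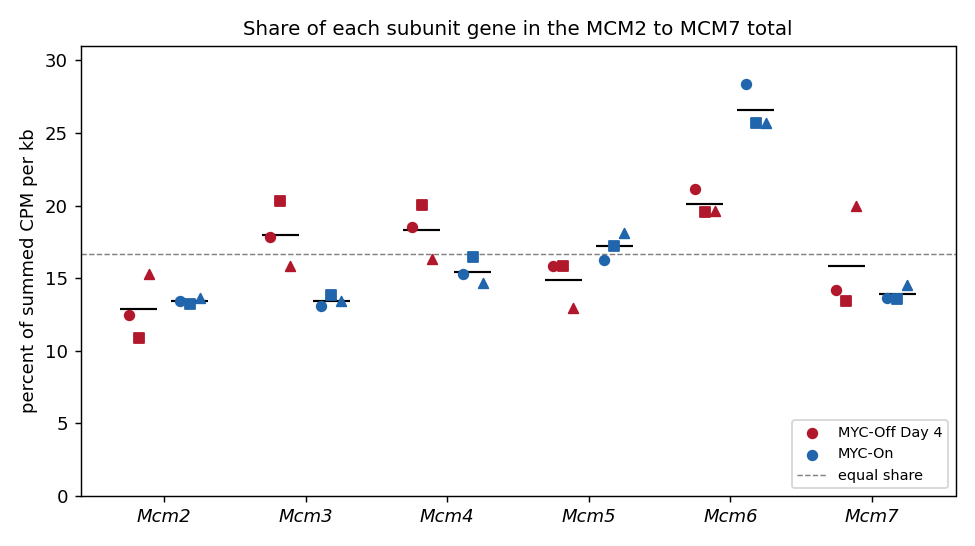
Share of each subunit gene in the summed CPM per kb of Mcm2 to Mcm7 (vertical axis, percent), in the MYC-Off Day 4 libraries (red, left) and the MYC-On libraries (blue, right), with a bar for the mean and a dashed line at an equal share. Mcm6 averages 20.1% in MYC-Off Day 4 and 26.6% in MYC-On, and Mcm3 18.0% and 13.4%.

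The MCM8 and MCM9 genes went apart. Mcm8 (chromosome 2, 132816141 to 132844197, plus strand) stood at 3.63, 1.68 and 2.38 CPM in the MYC-Off Day 4 libraries, against 21.1, 21.3 and 22.3 CPM in the MYC-On libraries, resting on 66, 22 and 31 reads against 473, 521 and 452 reads. It changed by -3.06 on the log2 scale (SE 0.36, adjusted p = 0.00108, edgeR), an 8.34-fold fall within the range of the ring subunits. Mcm9 (chromosome 10, 53536315 to 53630439, minus strand) stood at 7.14, 8.04 and 6.38 CPM in the MYC-Off Day 4 libraries, against 11.3, 12.1 and 7.69 CPM in the MYC-On libraries. The groups overlapped, and the log2 fold change was -0.53 with an interval from -1.27 to 0.21 (SE 0.32, adjusted p = 0.195, edgeR). A fall of up to 2.41-fold could not be told from no change at this spread. With library size only as the scaling Mcm9 passed (-1.26, adjusted p = 0.0288). Of the Mcm9 exon bases 19.2% overlap Asf1a on the other strand, which itself fell (-1.18, SE 0.23, adjusted p = 0.00521), and the value of Mcm9 is uncertain for that reason.

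Per kilobase, Mcm8 stood at 0.690 ± 0.265 in MYC-Off Day 4 and at 5.80 ± 0.174 CPM per kb in MYC-On, and Mcm9 at 0.788 ± 0.0912 in MYC-Off Day 4 and at 1.14 ± 0.257 CPM per kb in MYC-On (SD, n = 3 each). In MYC-On every library had more Mcm8 than Mcm9. In MYC-Off Day 4 Mcm9 had the higher mean by either length, and the longest transcript gave 0.755 CPM per kb for Mcm8 and 1.47 CPM per kb for Mcm9. By exon bases MYC-Off Day 4 replicate 1 went the other way, at 0.975 CPM per kb for Mcm8 and 0.784 CPM per kb for Mcm9. For every 100 reads of the 6 ring genes, which needs no scaling between libraries, there were 2.38, 1.82 and 3.29 Mcm8 reads in the MYC-Off Day 4 libraries, against 2.44, 1.93 and 2.66 in the MYC-On libraries. Mcm9 gave 4.70, 8.70 and 8.80 reads per 100 ring reads in the MYC-Off Day 4 libraries, against 1.31, 1.09 and 0.917 in the MYC-On libraries. The groups overlapped in this proportion for Mcm8. For Mcm9 they did not, which held with MYC-Off Day 4 higher for 92.2% of the tested genes outside the ring.

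Mcm10 (chromosome 2, 4989714 to 5012791, minus strand) split the MYC-Off Day 4 libraries. It stood at 10.9, 61.7 and 9.22 CPM in the MYC-Off Day 4 libraries, against 66.7, 83.9 and 58.4 CPM in the MYC-On libraries, so that replicate 2 was 5.64-fold above replicate 1 and 6.69-fold above replicate 3 and lay inside the MYC-On range. The reads behind these values were 199, 806 and 120 in MYC-Off Day 4 and 1497, 2051 and 1184 in MYC-On. Over all 6 libraries Mcm10 did not pass (log2 fold change -1.35, SE 0.71, adjusted p = 0.146, edgeR), and its interval ran from -3.02 to 0.31. Without MYC-Off Day 4 replicate 2 it passed at -2.85 (adjusted p = 0.00311), close to the values of the ring subunits. With all 6 libraries it passed in limma-voom (-1.95, adjusted p = 0.0341) and with library size as the scaling, both with all genes (adjusted p = 0.023) and without the 20 most abundant (adjusted p = 0.0402).

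No other MCM gene stood apart in that library in this way. For every 100 reads of the ring genes Mcm10 gave 7.19, 66.8 and 12.7 reads in the MYC-Off Day 4 libraries, against 7.73, 7.61 and 6.96 reads in the MYC-On libraries. The other members stood in replicate 2 at or between the values of replicates 1 and 3, except Mcm9, which was slightly higher (8.04 CPM), and Mcm2, Mcm7 and Mcm8, which were lowest there. No other annotated gene overlaps Mcm10.

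Mcmbp (chromosome 7, 128696441 to 128740495, minus strand) fell less than the subunits its protein binds. It stood at 46.3, 43.7 and 37.9 CPM in the MYC-Off Day 4 libraries, against 92.3, 118 and 86.4 CPM in the MYC-On libraries. The log2 fold change was -1.21 (SE 0.22, adjusted p = 0.00384, edgeR), a 2.32-fold fall with an interval from 1.63-fold to 3.29-fold that does not reach the interval of any ring subunit, of which the nearest begins at 3.59-fold (Mcm3). Against a minimum change of 2-fold it did not pass (adjusted p = 0.156, glmTreat). Per kilobase, Mcmbp at 8.34 ± 0.843 CPM per kb stood above each of the 6 subunits in MYC-Off Day 4, and at 19.4 ± 3.27 CPM per kb below each of their means in MYC-On (SD, n = 3 each). There were 30.4, 47.3 and 52.3 Mcmbp reads per 100 ring reads in the MYC-Off Day 4 libraries, against 10.7, 10.7 and 10.3 in the MYC-On libraries, a separation shared with the same 92.2% of genes.

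For 3 members another gene starts within 1 kb on the other strand. Prkdc, which encodes the catalytic subunit of DNA-dependent protein kinase, starts 466 bases from Mcm4. It stood at 9.23, 19.7 and 16.0 CPM in the MYC-Off Day 4 libraries, against 18.0, 18.7 and 11.9 CPM in the MYC-On libraries, and did not pass (log2 fold change -0.12, SE 0.35, adjusted p = 0.796, edgeR). Ap4m1, an adaptor protein subunit of membrane traffic, starts 420 bases from Mcm7. It stood at 8.46, 7.81 and 8.14 CPM in the MYC-Off Day 4 libraries, against 7.66, 10.7 and 9.72 CPM in the MYC-On libraries, and did not pass either (-0.20, SE 0.29, adjusted p = 0.588). Trmt6, a subunit of a tRNA methyltransferase, starts 86 bases from Mcm8 and fell (-1.56, SE 0.25, adjusted p = 0.00272), with 22.0, 19.2 and 13.1 CPM in the MYC-Off Day 4 libraries, against 52.7, 55.9 and 51.9 CPM in the MYC-On libraries.

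The log2 ratio of the MCM gene to its neighbour changed by -2.78 for Mcm4 with Prkdc, by -2.83 for Mcm7 with Ap4m1 and by -1.55 for Mcm8 with Trmt6. These differences are a description, since an exact two-sided permutation test on 3 against 3 libraries cannot go below p = 0.1. For Mcm4 and Mcm7 they restate the fall of the MCM gene beside a neighbour that did not pass.

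**Figure D4:**
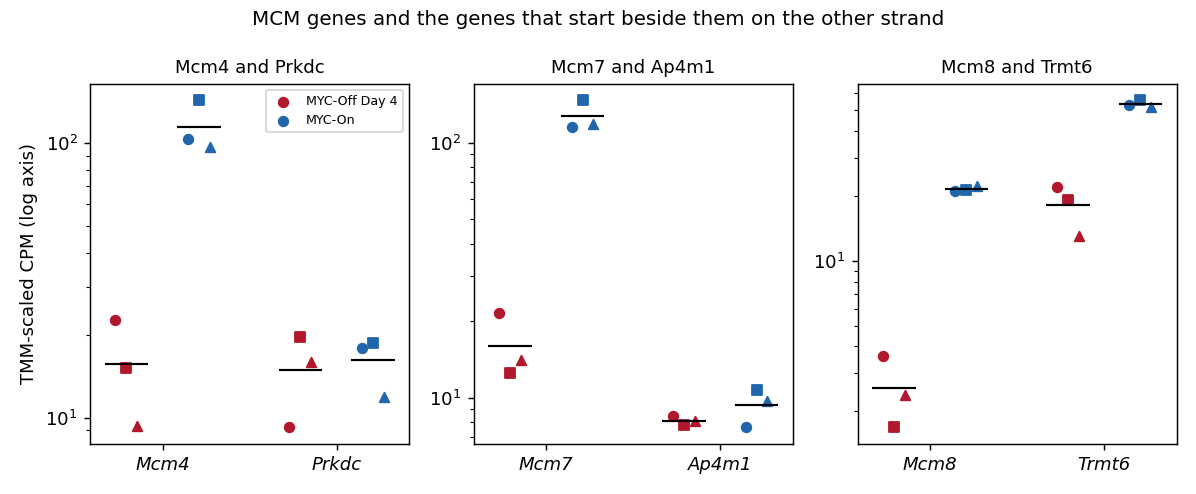
TMM-scaled CPM (log axes) of Mcm4, Mcm7 and Mcm8 and of the genes that start beside them on the other strand, in MYC-Off Day 4 (red) and MYC-On libraries (blue), with bars for means. Prkdc and Ap4m1 overlap between the groups, while Trmt6 is lower in MYC-Off Day 4 (18.1 CPM) than in MYC-On (53.5 CPM).

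Other genes of DNA replication were described from lists of named roles. The counts below stand beside the 22.8% of all tested genes that were lower and the 29.9% that were higher. All 9 genes of origin recognition and licensing fell, with a median log2 fold change of -2.40. The loading factors Cdt1 (12.5 ± 4.96 CPM in MYC-Off Day 4 and 112 ± 17.2 CPM in MYC-On; -3.16, SE 0.34, adjusted p = 0.000967) and Cdc6 (-3.65) fell with Orc1 (1.06 ± 0.467 CPM in MYC-Off Day 4 and 18.1 ± 3.51 CPM in MYC-On; -4.07), and so did Gmnn, whose protein geminin inhibits CDT1 (-2.20). The other origin recognition subunits fell less, Orc4 the least (-0.91, adjusted p = 0.0213).

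Of 12 genes of helicase activation 10 fell and 0 rose (median -2.72). Cdc45, the helicase partner of the ring, stood at 3.30 ± 1.19 CPM in MYC-Off Day 4 and at 35.3 ± 2.18 CPM in MYC-On (-3.41, SE 0.34, adjusted p = 0.00085), and Dbf4, the activating subunit of the kinase that phosphorylates the ring, stood at 9.43 ± 3.87 CPM in MYC-Off Day 4 and at 75.5 ± 2.42 CPM in MYC-On (-3.00). Gins3 (-0.70, adjusted p = 0.183) and Donson (-0.70, adjusted p = 0.0659) did not pass.

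Of 30 replisome and fork genes 28 fell and 1 rose (median -2.15), with Clspn, the checkpoint mediator at the fork (-3.91, SE 0.32), and Rfc5, a clamp loader subunit (-2.76, SE 0.24), having the smallest adjusted p (0.000805 each). The exception was Pold4, the smallest subunit of DNA polymerase delta, at 61.7 ± 18.4 CPM in MYC-Off Day 4 and 8.58 ± 2.90 CPM in MYC-On (2.85, SE 0.36, adjusted p = 0.00134). Pole4 did not pass (-0.25, adjusted p = 0.364).

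Of 8 tested genes among MCM8 and MCM9 partners and recombination factors 5 fell and 0 rose (median -1.33). The called genes included BC030867, the symbol in the table for Hrob, which loads MCM8-MCM9 (1.27 ± 0.805 CPM in MYC-Off Day 4 and 20.8 ± 2.87 CPM in MYC-On; -4.00). Mcmdc2 (0.55, adjusted p = 0.499) and Nbn (-0.52, adjusted p = 0.0933) were among those that did not pass. All 10 proliferation markers fell, with a median of -4.03 (-4.99 without MYC-Off Day 4 replicate 1), among them Mki67 (-3.08, SE 0.30) and Birc5 (-4.37, SE 0.44). The median of the ring genes, -3.09, lay between those of the proliferation markers and of the helicase activation genes.

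**Figure D5:**
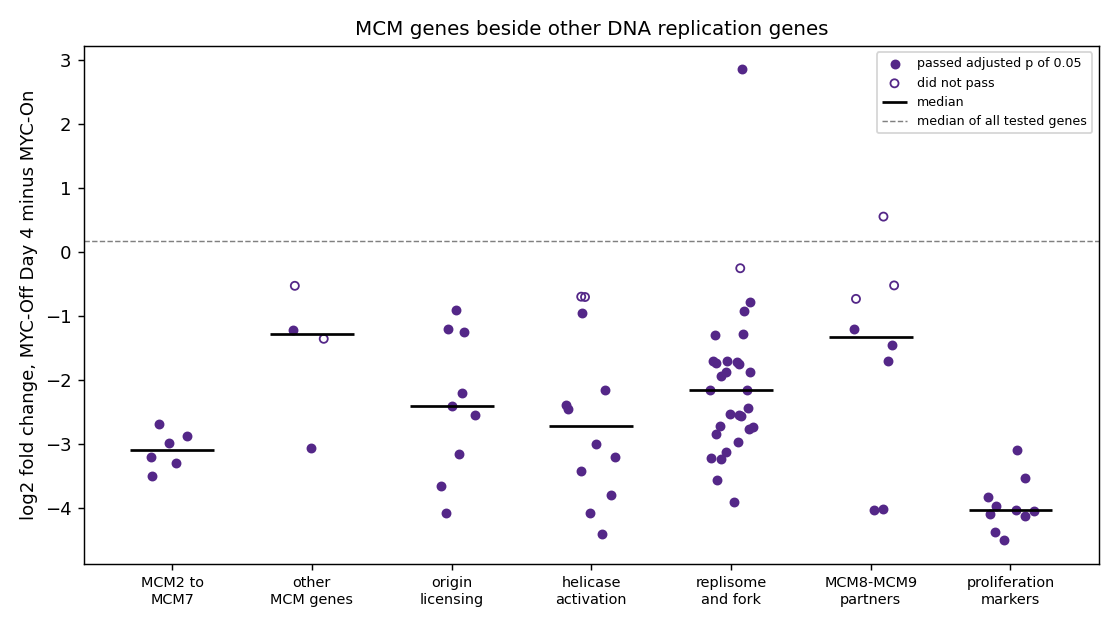
Log2 fold change (vertical axis, MYC-Off Day 4 minus MYC-On) of the MCM genes and of 5 lists of related genes, each point a gene, filled where it passed an adjusted p of 0.05, with bars for medians and a dashed line at the median of all tested genes (0.18). The ring genes lie between -3.50 and -2.69 and the proliferation markers between -4.50 and -3.08.

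Outside the family, the genes whose log2 CPM followed the mean profile of the 6 ring genes most closely over the 6 libraries were Utp14a, Atad5, Gar1, Dlgap5 and Cdc6, each with a Pearson r of 0.999. Utp14a and Gar1 encode factors of ribosomal RNA processing, Atad5 unloads the PCNA clamp from DNA, and Dlgap5 is a spindle protein. Their own log2 fold changes ran from -1.76 (Utp14a) to -3.65 (Cdc6), so likeness of profile did not mean an equal size of change. The 6 libraries form 2 groups and share the TMM scaling, and 341 of 14130 tested genes (2.41%) had an r above 0.99. Among the members, r was 0.984 for Mcm8, 0.986 for Mcmbp, 0.782 for Mcm9 and 0.711 for Mcm10.

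Marker transcripts of several liver cell types differed between the groups. Of all tested genes, 29.9% were higher and 22.8% lower in MYC-Off Day 4. Hepatocyte markers summed to between 80387 and 248451 CPM in MYC-Off Day 4 and to between 3840 and 7824 CPM in MYC-On, with 8 of 10 higher and no marker at 0 in either group. The other 2, Hnf4a (0.46, adjusted p = 0.405) and Ass1 (0.77, adjusted p = 0.361), did not pass. Macrophage markers (13 of 14 higher) summed to between 2628 and 9807 CPM in MYC-Off Day 4 and to between 695 and 1293 CPM in MYC-On. Lymphocyte markers (7 of 8 tested higher, of 13 listed) summed to between 41.9 and 276 CPM in MYC-Off Day 4 and to between 7.75 and 12.4 CPM in MYC-On. Endothelial markers (7 of 9 tested higher) summed to between 346 and 793 CPM in MYC-Off Day 4 and to between 83.9 and 107 CPM in MYC-On, and stellate cell and fibroblast markers (8 of 9 tested higher) to between 1011 and 2392 CPM in MYC-Off Day 4 and to between 144 and 152 CPM in MYC-On. Of 5 tested biliary markers 2 were higher and 1 was lower. With so few tested, this is not read as a difference from the shares over all genes. Biliary sums overlapped, at 86.3 to 257 CPM in MYC-Off Day 4 and 44.2 to 104 CPM in MYC-On. The part of these cell types in the MCM values was not tested.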

How the data were processed

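Total RNA of 6 tumour samples was sequenced. The deposited table holds the authors' whole-number read counts per gene symbol, not normalized. Per the submitters' processing notes, Trimmomatic, STAR, Picard, featureCounts and DESeq2 were used with mm10; the sources used here give no versions, annotation or strand setting. Symbols turned into dates (26 rows) were kept under a row number. Groups came from the sample titles. Libraries of a group all differed by more than counting noise (a chi-square of at least 32.1 for each degree of freedom).

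The counts were filtered with filterByExpr (minimum count 10, minimum total 15), scaled with TMM and tested with edgeR 4.0.16 in R 4.3.3 (robust quasi-likelihood fit, Benjamini-Hochberg adjustment). SE is the log2 fold change over the square root of F, and intervals from the fit's degrees of freedom. Log2 CPM used a prior count of 2. Coordinates and exon lengths come from GENCODE M21 (mm10), and promoter sequences from RefSeq (GRCm38.p6).

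The members and lists were chosen with earlier results of these data known. Genes named are the members, Myc, in each list the 2 called genes of smallest adjusted p and, where 5 or fewer, those that did not pass or went against the rest, start-site neighbours and exon overlaps of members, and the 5 genes of at least 10 CPM most like the ring genes. Orc4, Gmnn and the comparison of Mcm10 between libraries were chosen after their values were seen. Some genes that this rule names are not reported here. Alternatives used other scalings, filters, thresholds and tests (DESeq2 1.42.0, limma-voom 3.58.1), a replicate block, another gene length, and leaving out each library. Figures were drawn with matplotlib 3.10.9.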

Additional observations from a re-analysis of the deposited data

How the results depend on the processing

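The 6 ring genes and Mcm8 stayed lower and past the threshold in all 17 alternatives, at -4.14 to -2.49 on the log2 scale, and Mcmbp in all but the test against 2-fold (-1.21, adjusted p = 0.156). Mcm9 passed with library size only (-1.26, adjusted p = 0.0288). Mcm10 passed with library size only (-2.20), library size without the 20 most abundant genes (-1.87), limma-voom (-1.95) and the replicate block (-1.92, adjusted p = 0.0399). Over the alternatives with all libraries its adjusted p ran from 0.023 to 0.383, and leaving out single libraries gave -2.85 to -1.08. The cause of these changes was not tested.

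Of all tested genes, library size only called 5300 lower and 2527 higher, the test against 2-fold 1428 and 2621, and an adjusted p of 0.01 1889 and 2368; leaving out single libraries gave 2776 to 4317 higher, the lowest without MYC-On replicate 2. With library size without the 20 most abundant genes, 42.8% of called genes were higher, and log2 fold changes shifted by -0.39 at the median. With library size only the list medians were -3.03 (licensing), -3.39 (helicase activation), -2.82 (replisome) and -2.03 (MCM8 and MCM9 partners). Without the 20 most abundant genes the last 2 were -2.50 and -1.70, and the partners stood at -1.40 with DESeq2 size factors and with DESeq2. Leaving out single libraries gave medians of -2.94 to -2.27 (licensing), -3.19 to -2.70 (helicase activation), -2.59 to -2.11 (replisome), -1.58 to -1.28 (partners) and -4.99 to -3.78 (proliferation markers, lowest without MYC-Off Day 4 replicate 1). Counts within lists stayed within 1.5 times throughout.

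With the longest transcript as the length, levels in CPM per kb were 5.96 (Mcm2), 5.41 (Mcm7), 1.47 (Mcm9) and 10.1 (Mcmbp) in MYC-Off Day 4, and 55.0 (Mcm2), 41.9 (Mcm5), 42.8 (Mcm7), 6.35 (Mcm8), 2.12 (Mcm9), 14.3 (Mcm10) and 23.3 (Mcmbp) in MYC-On. Shares were then 20.2% (Mcm2), 15.6% (Mcm3), 14.5% (Mcm4) and 17.1% (Mcm6) in MYC-Off Day 4, and 21.1% (Mcm2), 11.6% (Mcm3), 12.2% (Mcm4), 16.1% (Mcm5), 22.5% (Mcm6) and 16.4% (Mcm7) in MYC-On.

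Samples with the same replicate number did not deviate together (Pearson r between -0.262 and 0.04 over genes, for 3 pairs), so the numbers do not pair the samples; the block changed the call of 1 member, Mcm10. The lowest read count behind a called member was 22, for Mcm8 in MYC-Off Day 4 replicate 2.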

Other observations

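The Mcm10 pattern was searched for over the whole table, by limits chosen after its values were seen. MYC-Off Day 4 replicate 2 had at least 10 CPM and at least 4 times the level of both other MYC-Off Day 4 libraries for 137 of 14130 tested genes (0.97%). Of these, 1 gene, Mcm10, also lay inside its own range of the MYC-On libraries. By the same limits replicate 1 stood out for 201 genes, of which 0 lay inside the MYC-On range, and replicate 3 for 158 genes, of which 6 did (Gipc2, Mapk15, Vil1, Igf2os and 2 unnamed gene models). None of the other 9 MCM genes met the limits in any MYC-Off Day 4 library.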
